A study of Mus musculus and Rattus norvegicus with 2 samples.

Results

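The reads described here carry a mitochondrial label in small RNA libraries of caput epididymal sperm, the sperm found in the head of the duct where they mature after leaving the testis. They are the listed sequences whose matched GenBank record was typed as mitochondrial RNA, 14190 of 914516 sequences in the mouse library and 7356 of 650877 in the rat library, or 21546 of 1565393 in all. The animals were C57BL/6 mice 2 months old and young adult Sprague Dawley rats of 450 g, for which the labels record normal growth and no treatment. There was 1 library of purified sperm per species, so no statistical test between species was possible, and the sources used here do not say how many animals gave it. The fraction of 18 to 45 nt was selected before library construction, although the labelled sequences ran to 81 nt in mouse and 79 nt in rat. The label itself was checked by sequence, and in mouse most reads that carried it were not mitochondrial RNA.

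The mitochondrial genome of mammals is a small circle with genes for the small (12S) and large (16S) rRNA of the mitochondrial ribosome, for tRNAs, and for mRNAs of the respiratory chain. Both strands are transcribed into long precursors. The tRNAs lie between many of the other genes and are cut out of the precursor, which frees the rRNAs and mRNAs on either side. Sperm carry their mitochondria in a sheath around the midpiece of the tail and keep little cytoplasm. Nuclear genes encode most mitochondrial proteins, and a record can be typed as mitochondrial because its gene encodes such a protein.

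The sequences on which the results turn are printed first, 5′ to 3′. The first pair shows why the label had to be checked. They were among the 5 most abundant labelled sequences in mouse, and capitals mark the bases they share, which also occur in reads of nuclear rRNA entries:
mouse nuclear rRNA, 19 nt: TGATCCTTCGATGTCGGCT
mouse nuclear rRNA, 20 nt: tTGATCCTTCGATGTCGGCT

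The leading mitochondrial reads of mouse formed a nested series in the 12S rRNA gene (mt-Rnr1, positions 70 to 1024, plus strand). Their 3′ end was the same and their 5′ ends differed, and capitals mark the bases common to all 5:
12S series, 31 nt: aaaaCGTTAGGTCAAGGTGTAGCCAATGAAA
12S series, 32 nt: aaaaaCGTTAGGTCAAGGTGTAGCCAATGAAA
12S series, 28 nt: aCGTTAGGTCAAGGTGTAGCCAATGAAA
12S series, 27 nt: CGTTAGGTCAAGGTGTAGCCAATGAAA
12S series, 30 nt: aaaCGTTAGGTCAAGGTGTAGCCAATGAAA

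The leading rat reads instead shared their 5′ end, which was the first base of the 16S rRNA gene (mt-Rnr2, positions 1094 to 2675, plus strand), and differed at the 3′ end. They are shown with the 2 leading mouse reads from the same place. Capitals mark the longest run shared with the leading read of the other species, wherever it lies. In the 24-nt mouse read it starts further from the 5′ end than in the leading rat read:
16S start, mouse, 20 nt: actaatCCTAGCCCTAgccc
16S start, mouse, 24 nt: actaatcctagCCCTAGCCCTACA
16S start, rat, 25 nt: actaacCCTAGCCCTAcaaccaacc
16S start, rat, 21 nt: actaacCCTAGCCCTAcaacc
16S start, rat, 42 nt: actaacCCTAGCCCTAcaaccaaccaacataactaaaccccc
16S start, rat, 28 nt: actaacCCTAGCCCTAcaaccaaccaac

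A stretch in the 3′ part of 16S rRNA was read letter for letter in both libraries. Capitals mark the leading mouse read of the stretch and its letters within the 3 leading rat reads, which the deposited tables list under mRNA records:
16S stretch, mouse, 30 nt: TCAACGGACCAAGTTACCCTAGGGATAACA
16S stretch, rat, 47 nt: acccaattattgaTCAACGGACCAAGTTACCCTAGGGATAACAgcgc
16S stretch, rat, 42 nt: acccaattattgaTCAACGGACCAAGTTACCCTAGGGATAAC
16S stretch, rat, 52 nt: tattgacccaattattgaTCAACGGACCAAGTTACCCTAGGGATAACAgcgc

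The last set comes from the histidine tRNA (mt-Th). In the rat reads, the capital marks a first base that stands before the start of the tRNA. In the mouse read, which the table lists under a tRNA entry, capitals mark the letters shared with the leading rat read:
tRNA-His, mouse, 22 nt: AAACATTAGACTGTGAATCTga
tRNA-His, rat, 42 nt: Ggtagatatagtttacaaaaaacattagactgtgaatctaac
tRNA-His, rat, 53 nt: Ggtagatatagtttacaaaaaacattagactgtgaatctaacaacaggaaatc

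Positions are those of the mouse mitochondrial genome in GENCODE vM21 (GRCm38). Rat reads were joined into longer rat sequences and these were aligned to the mouse genes, so rat positions are the matching mouse positions. The mitochondrial control region (D-loop) lies outside the annotated genes and was not analysed here.

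Mitochondrial records took a larger share of the mouse library than of the rat library, whereas mitochondrial sequence under those records took a smaller one. The records held 86669 of 11760708 listed mouse reads, or 0.737% (95% interval 0.732 to 0.742), and 59478 of 14652889 listed rat reads, or 0.406% (0.403 to 0.409). The log2 ratio of mouse over rat was 0.86 (0.85 to 0.88). Reads under the records that were mitochondrial sequence made up 0.1302% of listed mouse reads (0.128 to 0.132) and 0.387% of listed rat reads (0.383 to 0.390), and their log2 ratio, mouse over rat, was -1.57 (-1.60 to -1.54). The label and the sequence therefore ordered the libraries in opposite ways. The intervals are exact and binomial. PCR copies were not marked by molecular identifiers, so they hold counting error alone, and nothing here measures how animals or libraries of 1 species vary. Fewer cells of a type and less RNA per cell cannot be told apart in such bulk RNA.

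Nuclear rRNA sequence made up most labelled mouse reads and almost none of the labelled rat reads. Of the labelled mouse reads, 17.7% were mitochondrial sequence (15310 reads in 3239 sequences), 61.8% shared an 18-nt word with nuclear rRNA reads (53548 reads in 2763 sequences) and 20.6% were neither (17811 reads in 8188 sequences). Of the labelled rat reads, 95.2% were mitochondrial sequence (56631 reads in 4637 sequences), 7 reads shared such a word and 4.78% were neither (2840 reads in 2712 sequences). The bar plot of sequence content shows this contrast. With these 53548 mouse and 7 rat reads left out, an alternative added after the data were seen, the log2 ratio of the record share became -0.53 (-0.55 to -0.51).

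**Figure D1:**
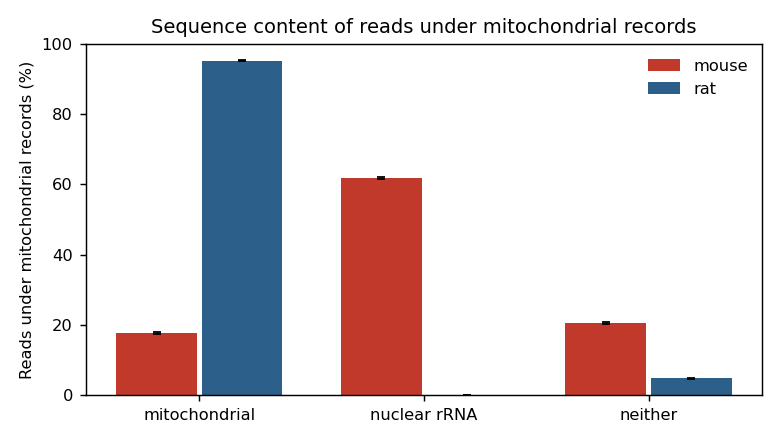
Share of the reads under mitochondrial records (y axis, percent) that were mitochondrial sequence, nuclear rRNA sequence or neither, in mouse (red, left) and rat (blue, right). Bars are 1 library each and error bars are exact 95% binomial intervals. Mouse reads stood at 17.7%, 61.8% and 20.6%, and rat reads at 95.2%, 0.0118% and 4.78%.

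Most of the rRNA sequence matched the transcript of Lars2, the nuclear gene (chromosome 9, positions 123366927 to 123462666) for the mitochondrial leucyl-tRNA synthetase, which charges a mitochondrial tRNA with leucine. The RefSeq record of Lars2 was the largest mouse record with 11776 reads, or 13.6% of labelled reads, and 11775 of these shared an rRNA word. Along the 3894 nt of its longest GENCODE transcript, 385 bases between positions 3030 and 3417 lay in such words. Labelled reads that matched the transcript exactly numbered 52514 within those bases and 24 over the remaining 3509 bases, or 136400 against 6.84 reads per kb. No labelled read was antisense to it. The stretch that shares rRNA words thus took 60.6% of all labelled mouse reads, and the rest of the transcript 24 reads.

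The leading mouse sequence of 19 nt was listed 5489 times in mouse (467 rpm, reads per 1000000 listed reads) and 578 times in rat (39.5 rpm). The longer sequences that hold it stood under different classes in the libraries. Of 23970 mouse reads that hold it, 19679 stood under mitochondrial records and 1676 under rRNA entries. Of 7474 rat reads that hold it, 0 stood under mitochondrial records and 7401 under rRNA entries. The class totals therefore place this sequence under the mitochondrial label in mouse and under rRNA in rat.

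The remaining mouse reads mostly matched nuclear transcripts. Of the 17811 reads that were neither mitochondrial nor rRNA, 85.3% matched a GENCODE transcript exactly in the sense direction, 2.70% matched in the antisense direction alone and 12.03% had no exact match. Reads that fell in a single gene came from 368 genes. The largest were Idh2, the mitochondrial NADP-dependent isocitrate dehydrogenase, with 1095 reads in 85 sequences, Ucp2, an uncoupling protein of the inner membrane, with 684 reads in 332 sequences, and Atp5b, the beta subunit of ATP synthase, with 680 reads in 329 sequences. Mrpl37, a protein of the mitochondrial ribosome, had 496 reads and Got2, the mitochondrial aspartate aminotransferase, had 422. Rmrp, the RNA component of RNase MRP, had 241. The rat reads that were neither could not be matched to transcripts here. They fell under 368 records at 1.047 reads per sequence, against 2.17 in mouse.

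Records behaved differently too. In mouse, 12 of 940 records held at least 1% of labelled reads each and together 71.4% of them. In rat, 6 of 377 records held 94.2%, led by a single mitochondrial record with 40522 reads (68.1%) and another with 8024 reads (13.5%).

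Among labelled mitochondrial reads, the 2 rRNAs supplied nearly everything in mouse, while rat also held a large tRNA share. Both orders turned when every deposited class was searched: rRNA then made up 81.3% in mouse and 91.9% in rat, and tRNA 12.5% in mouse and 7.996% in rat. With each rat read aligned alone to the mouse genes, as first planned, and an identity limit below 85%, rRNA made up 45.7% in rat. Under the label, the rRNAs made up 96.6% of mitochondrial reads in mouse (96.3 to 96.9) and 85.03% in rat (84.7 to 85.3). The 22 tRNA genes made up 0.457% in mouse, with reads in 5 of them, and 14.7% in rat, with reads in 18 of them. The 13 mRNA genes made up 2.95% in mouse and 0.318% in rat, with reads in 8 of them in each library. These are shares of a library's own mitochondrial reads, so a high share of 1 gene lowers the others.

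The mouse rRNA reads were spread over both genes and the rat rRNA reads lay mostly in 16S. mt-Rnr1 held 6272 reads or 41.0% of mitochondrial reads in mouse (533 rpm) and 3825 reads or 6.75% in rat (261 rpm). mt-Rnr2 held 8517 reads or 55.6% in mouse (724 rpm) and 44331 reads or 78.3% in rat (3025 rpm). Per length, the order of the 2 genes differed between libraries: mt-Rnr1 had 6568 and mt-Rnr2 5384 reads per kb in mouse, and mt-Rnr1 had 4005 and mt-Rnr2 28020 reads per kb in rat. The order of the libraries in mt-Rnr1 held under the label alone. Exact reads of every class put mt-Rnr1 at 524 rpm in mouse and 1432 rpm in rat, and mt-Rnr2 at 615 rpm in mouse and 20920 rpm in rat. Labelled reads touched 94.2% of the bases of mt-Rnr1 in mouse and 95.7% in rat, and 92.6% of those of mt-Rnr2 in mouse and 79.7% in rat, so the peaks described next stood over a thin background along the genes.

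**Figure D2:**
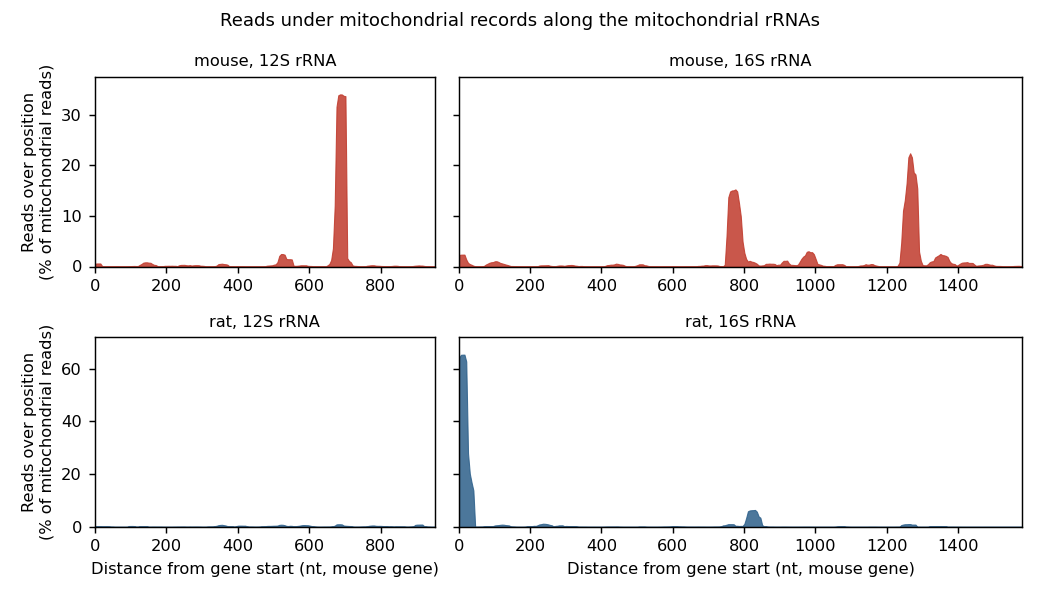
Reads under mitochondrial records over each position of the 12S (left) and 16S (right) rRNA genes, in mouse (top, red) and rat (bottom, blue). The x axis is the distance from the start of the mouse gene in nt, the y axis the percent of the library's mitochondrial reads that cover the position, with its own range in each species. Mouse reads peaked before 702 nt of 12S and within 748 to 793 and 1242 to 1292 nt of 16S, and rat reads at the first bases of 16S, with a lower peak that starts near 806 to 810 nt.

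In mouse, a single 3′ end dominated 12S rRNA. Of 6272 mt-Rnr1 reads, 4758 or 75.9% (74.8 to 76.9) ended at position 771, which is base 702 of the gene. They comprised 55 sequences of 18 to 64 nt. The 5 leading ones, printed above, had 1299, 539, 526, 376 and 350 reads. The first of them, at positions 741 to 771, was the most abundant mitochondrial sequence of the mouse library and ranked 302 among all listed sequences. In rat, 25 labelled reads ended within 1 nt of the matching position, 0.0441% of mitochondrial reads, against 32.0% (4899 reads) in mouse. The rat 12S reads had no comparable leading end: their most frequent one, at position 989, held 346 of 3823 sense reads or 9.05%.

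Among labelled rat reads, which are 14.9% of exact rat mitochondrial reads, a single 5′ end dominated 16S rRNA. Of 44330 sense mt-Rnr2 reads, 36246 or 81.8% (81.4 to 82.1) began at the first base of the gene, in 318 sequences of 18 to 44 nt. Over every class this start held 11.5% of rat 16S reads (35149), below the 48058 that began at position 2335. The 3′ ends of 16S reads fell at a few places. Of all sense mt-Rnr2 reads, 11347 ended at base 25 of the gene, 7811 at base 21 and 6492 at base 42. The 4 leading sequences had 10992, 7668, 5936 and 2509 reads, and the first ranked 69 in the whole rat library at 750 rpm. Together with the histidine tRNA read these were the 5 most abundant labelled rat sequences, and 0 of the 4 were listed in mouse. A lower rat peak further along 16S had its most frequent starts at bases 810 and 806 of the gene, with 498 and 432 reads.

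The mouse counterpart was present at a low level. Reads that began within 1 nt of the 16S start numbered 349 in mouse (2.28% of mitochondrial reads, 29.7 rpm) and 36286 in rat (64.1%, 2476 rpm). The leading mouse read, 20 nt long, had 137 reads, and 16 of its 20 bases were the same in the leading rat read. The base before this start is the last base of the valine tRNA gene (mt-Tv, positions 1025 to 1093). Reads that ran across the boundary by more than 5 nt on either side numbered 0 of 15310 in mouse, which allows a share of up to 0.0196%, and 39 in rat (0.0689%, 29 sequences). In rat, the boundary was thus a read start far more often than it was read through.

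Mouse 16S reads lay in 2 other places. Reads centred between positions 2335 and 2385 numbered 3426 in mouse (22.4% of mitochondrial reads) and 588 under mitochondrial records in rat (1.04%). Reads centred between positions 1841 and 1886 numbered 2310 in mouse (15.1%) and 552 in rat (0.975%). Exact reads of every class in this second place numbered 1960 in mouse (11.9%, 167 rpm) and 4259 in rat (1.195%, 291 rpm). Its share of mitochondrial reads was thus higher in mouse, and its share of listed reads higher in rat. The leading mouse reads of both places were modest, with 190 reads for the printed 30-nt sequence at 2352 to 2381 and 108 for a 41-nt sequence at 1846 to 1886. Many sequences of nearby ends made up the peaks, 662 and 446 in mouse.

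The histidine tRNA held 7665 of the 8295 rat reads in tRNA genes, 13.5% of all rat mitochondrial reads, and 0 labelled mouse reads. Histidine tRNAs are known to carry an extra guanosine before the first base encoded by the gene, which their synthetase recognises. The GENCODE gene spans positions 11546 to 11612, and the tRNA entry to which the table assigns mouse reads starts at 11545. Of the 7665 rat reads, 7623 or 99.5% (99.3 to 99.6) began 1 base before that entry's start, which is 2 bases before the GENCODE start, in 41 sequences, and 0 began at the entry's start. The first base was G in 7614 of them, and 7614 carried a listed mismatch at that base against the matched record. It is written for the leading read as T1G, with the record's base first, then the position counted from 1 at the read's 5′ end, then the read's base. The leading read of 42 nt had 5886 reads, and the next, of 53 nt with the same start, had 534. Whether the base was encoded in these animals was not tested.

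The other tRNA genes were low under mitochondrial records. In rat, mt-Ts2, a serine tRNA next to mt-Th, had 208 reads, mt-Tt, the threonine tRNA, 160, mt-Tk, the lysine tRNA, 101, mt-Tr, the arginine tRNA, 47, and mt-Tq, the glutamine tRNA, 43. In mouse, mt-Tg, the glycine tRNA, had 43 reads, mt-Tt 12 and mt-Tp, the proline tRNA, 10. Pooled over genes, the ends differed between the libraries, but the genes behind the pools differed too. Sense tRNA reads began within 2 nt of the gene start in 0 of 70 cases in mouse, which allows up to 4.29%, and in 7977 of 8282 in rat (96.3%), of which 7623 were mt-Th reads. They ended within 2 nt of the gene end or with a CCA tail after it in 65 of 70 in mouse (92.9%) and in 228 of 8282 in rat (2.75%), and a whole CCA tail was read in 2 of the mouse and 8 of the rat reads. Among genes with sense reads in both libraries, mt-Tt showed like ends: 0 of 12 reads began at the gene start in mouse and 0 of 149 in rat. At the gene end, 12 ended in mouse and 148 in rat. mt-Tp differed: 0 of 10 reads began at the gene start in mouse and 4 of 4 in rat, and 10 ended at the gene end in mouse and 0 in rat. For mt-Tr, 0 of 4 began at the start in mouse and 8 of 47 in rat, and for mt-Ts2, 0 of 1 in mouse and 197 of 208 in rat. The 70 mouse reads rest on few genes, and all 43 mt-Tg reads ended at the gene end. With no distance allowed from the gene start, the share was 0 in mouse and 4.12% in rat, because the mt-Th reads begin 2 bases before it.

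Labelled mRNA reads were few and scattered. The joined rat sequences covered 3865 of the 15422 mouse positions, and rat reads elsewhere were placed only if they aligned alone at 85% identity, so low rat mRNA values and missed rat reads cannot be told apart. mt-Co2, a subunit of cytochrome c oxidase (complex IV), was the one mRNA with at least 1% of labelled mitochondrial reads in either library, with 166 reads (1.08%, 14.1 rpm) in mouse. The 3 complex IV mRNAs together held 1.16% of mitochondrial reads in mouse and 0.0636% in rat, the 2 ATP synthase mRNAs 0.927% in mouse and 0.00353% in rat, and mt-Cytb of complex III 0.555% in mouse and 0.00177% in rat. The 7 complex I mRNAs held 0.307% in mouse and 0.249% in rat. Most of the rat complex I reads came from mt-Nd6, which is encoded on the minus strand, with 139 reads and a leading 35-nt sequence of 76 reads at positions 13967 to 14001. Per length, mt-Co2 had 243 reads per kb in mouse, below either rRNA gene. Over every class in mouse, mt-Co2 held 0.813% and mt-Nd4 of complex I 2.21% (365 reads, 259 of them antisense), the complex I mRNAs 3.18% and all mRNAs 6.19%. Under the label, genes under 1% in both libraries together held 2.32% of mitochondrial reads in mouse and 1.41% in rat.

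As placed here, almost every labelled mitochondrial read was sense to its gene. Antisense reads numbered 22 of 15310 in mouse (0.144%) and 18 of 56631 in rat (0.0318%). With each rat read aligned alone, 33.5% of rat reads were antisense and the order turned. For the rRNA genes antisense reads numbered 0 in mouse, which allows up to 0.0196%, and 3 in rat. Reads without a mismatch to the GENCODE genes made up 89.1% of mitochondrial reads in mouse. In rat, 93.7% had no mismatch to sequences that were themselves joined from rat reads. Such joined sequences hold the bases most reads carried, so these shares cannot be compared between the libraries.

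Labelled mitochondrial reads had their own lengths, which did not hold over every class. Under the label they were, in mouse, most often 31 nt (11.1%) with a median of 33 nt, and in rat most often 42 nt (22.1%) with a median of 29 nt. The share of 30 nt or more was 72.8% in mouse (72.1 to 73.5) and 48.4% in rat (48.0 to 48.8), against 80.2% of all listed reads in mouse and 77.4% in rat. Over every class the order turned, with 67.8% in mouse (67.1 to 68.5) and 77.8% in rat (77.7 to 77.9). Mouse reads were then most often 31 nt long, with a median of 32 nt, and rat reads most often 47 nt, with a median of 38 nt. The plot of lengths shows a broad mouse distribution and narrow rat peaks at 21, 25 and 42 nt. The 3 leading rat 16S reads and the leading tRNA-His read have these lengths. By gene, mt-Rnr1 reads had a median length of 31 nt in mouse against 30 nt in rat, and mt-Rnr2 reads 37 nt in mouse against 25 nt in rat. tRNA reads had a median of 36 nt in mouse and 42 nt in rat.

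**Figure D3:**
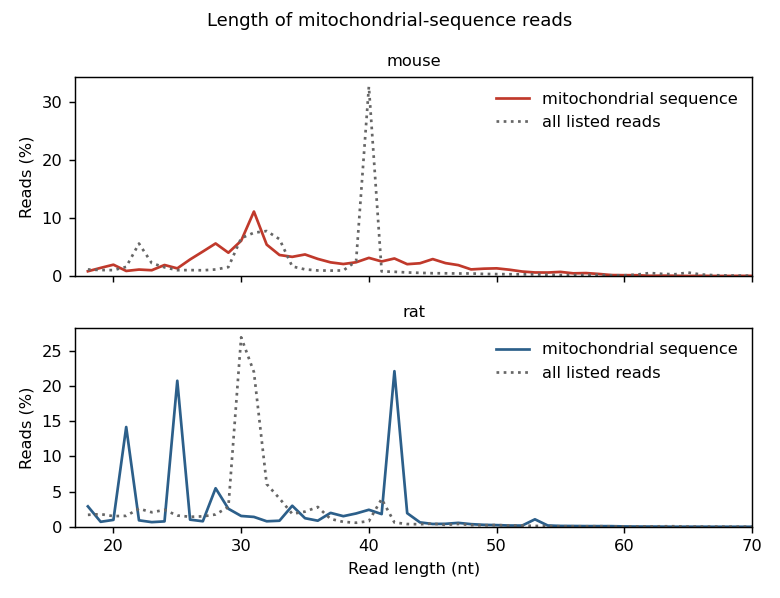
Length distribution (x axis, nt) of labelled mitochondrial-sequence reads (solid, red in mouse above, blue in rat below) and of all listed reads (dotted, grey), as percent of reads (y axis). Mitochondrial reads were most frequent at 31 nt in mouse and 42 nt in rat, away from the most frequent lengths of all listed reads, 40 nt in mouse and 30 nt in rat.

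Because each sequence carries a single matched entry, mitochondrial RNA can also stand under other classes. A search of every class for exact matches found 16479 mitochondrial reads in mouse and 356320 in rat, 0.140% of listed reads in mouse (0.138 to 0.142) and 2.43% in rat (2.42 to 2.44). The log2 ratio of mouse over rat was then -4.12 (-4.14 to -4.09). Under the records it was -1.57 with up to 2 mismatches and -1.64 with 0. Mouse reads were matched to GENCODE genes but rat reads to sequences joined from rat reads, so an exact match is not the same demand in both. Mitochondrial records held 82.7% of the exact mitochondrial reads in mouse and 14.9% in rat. In rat, 301179 reads or 84.5% stood under mRNA records, and 281768 of them were rRNA sequence. In mouse, mRNA records held 749 reads (4.55%) and tRNA entries 1770 (10.7%). The plot of the 3 ways of counting shows mouse above rat for the records and rat above mouse for sequence.

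**Figure D4:**
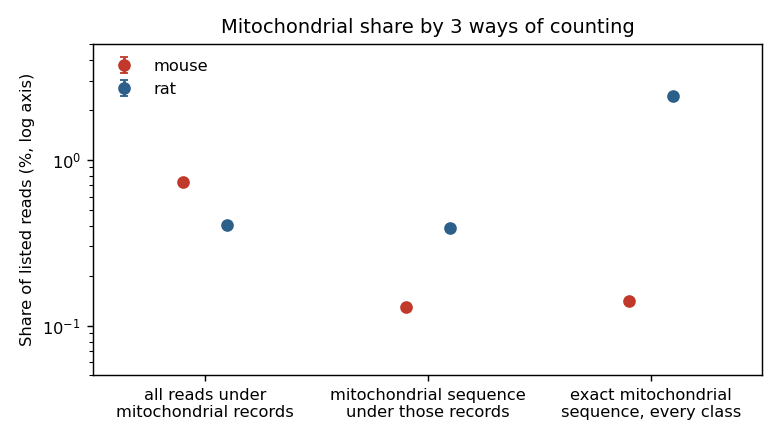
Share of listed reads (y axis, percent, log axis) that stood under mitochondrial records, that were mitochondrial sequence under those records, and that matched mitochondrial sequence exactly in any class, in mouse (red, left) and rat (blue, right). Points are 1 library each, with exact 95% intervals smaller than the points. Mouse stood at 0.737%, 0.1302% and 0.140%, and rat at 0.406%, 0.387% and 2.43%.

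Counted over every class, the rat peak moved within 16S. The stretch of positions 2335 to 2385, printed above, held 2724 reads in mouse (16.5% of exact mitochondrial reads, 232 rpm) and 226509 in rat (63.6%, 15460 rpm). Its 47-nt leading rat sequence had 22894 reads (1562 rpm) and ranked 41 in the library, ahead of every labelled sequence, and the next had 8318 and 7245. Rat reads there ended most often at bases 1292, 1287 and 1288 of the gene, with 78052, 52157 and 35980 reads, and mouse reads most often at base 1288, with 1339. In both libraries the most frequent start over every class was base 1242, with 508 reads in mouse and 48058 in rat. The 16S start then held 497 reads in mouse (3.02%) and 35178 in rat (9.87%). The end that dominated mouse 12S held 4885 reads in mouse (29.6%) and 39 in rat (0.0109%).

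**Figure D5:**
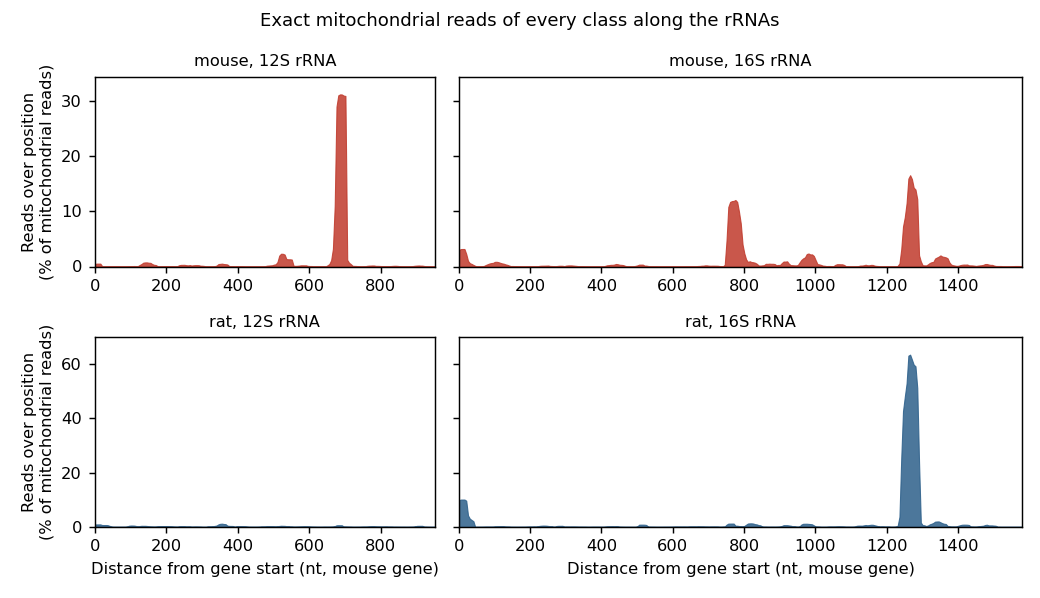
Exact mitochondrial reads of every class over each position of the 12S (left) and 16S (right) rRNA genes, in mouse (top, red) and rat (bottom, blue). The x axis is the distance from the start of the mouse gene in nt and the y axis the percent of the library's exact mitochondrial reads that cover the position, with its own range in each species. Mouse reads peaked in 12S and at 2 places of 16S, and rat reads within 1242 to 1292 nt of 16S, with a lower peak at its start.

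Over every class the tRNA reads became visible in mouse as well. They made up 12.5% of exact mitochondrial reads in mouse, in 21 of 22 genes, and 7.996% in rat, in 17 of 22. Exact rat reads could be found only in the joined rat sequences, which covered 3865 of the 15422 mouse positions. Rat mt-Tw, for example, had 11 labelled reads but 0 exact reads over every class. Absent rat tRNA reads and missed ones therefore cannot be told apart. mt-Th had 657 reads in mouse (55.9 rpm) and 8224 in rat (561 rpm). None of the 657 mouse reads began at the mt-Th gene start or within 2 nt after it. Position 11545 belongs to no gene, so mouse reads over it could not match exactly. Mouse reads that begin where the rat reads did could therefore not be found, and the libraries cannot be compared there. In rat, 7623 of 8242 mt-Th reads (92.5%) began there when exact reads of other classes were added to the labelled ones. mt-Tq had 263 reads in mouse (22.4 rpm) and 10526 in rat (718 rpm), and 82.9% of the mouse and 98.1% of the rat reads began at the gene start. mt-Tm, the methionine tRNA, had 76 reads in mouse (6.46 rpm) and 8536 in rat (582 rpm), and 18.4% of the mouse and 94.2% of the rat sense reads began at the gene start. mt-Tv had 310 reads in mouse (26.4 rpm) and 307 in rat (20.9 rpm), with starts at the gene start in 1.94% of the mouse reads and 2.61% of the rat reads. Sense tRNA reads at the gene start made up 23.6% in mouse, with the mt-Th reads counted, and 93.3% in rat.

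Antisense mitochondrial reads were also found in mouse once every class was searched, 567 of 16479 or 3.44%, against 5 of 356320 in rat. They came mainly from mt-Nd4, a complex I mRNA, with 259 antisense reads, and mt-Tp with 190. No mouse antisense read lay in the rRNA genes, which allows up to 0.0182%. In rat, mt-Nd4 had 0 reads on either strand, and the joined rat sequences covered 3865 of the 15422 mouse positions. Where they did not reach, absent rat antisense reads and missed ones cannot be told apart. Rat mt-Tp had 50 reads, of which 0 were antisense.

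Sequences listed letter for letter in both libraries were compared next. Of 18117 such sequences with at least 20 reads in all, 27.5% were more than 2-fold higher in mouse and 45.1% more than 2-fold higher in rat, in rpm. Of the 690 that stood under a mitochondrial record in either library, 315 (45.7%) were higher in mouse and 174 (25.2%) higher in rat, but 566 of them were rRNA sequence. Among the 121 of mitochondrial sequence, 5 were higher in mouse and 109 higher in rat, and the median log2 ratio of mouse over rat was -4.33, against -0.65 over all 18117. The limit of 20 reads is on the sum, so a sequence can enter through 1 library alone, such as 1 with 1 mouse and 3243 rat reads. With at least 10 reads in each library, 393 labelled sequences were left, 194 higher in mouse and 29 higher in rat. The split of 5 and 109 therefore depends on this limit. Of the 121, 115 stood under mRNA records in rat, and 4 stood under mitochondrial records in both libraries. The most abundant was a 29-nt sequence of the printed 16S stretch, positions 2352 to 2380, with 3.57 rpm (42 reads) in mouse and 475 rpm (6954 reads) in rat. The printed 30-nt mouse read had 16.2 rpm in mouse and 184 rpm in rat. The sequences overlap one another, so these counts do not describe independent RNAs.

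The libraries also differed in other RNAs. The 3 germ cell miRNAs summed to 14.2 rpm in mouse and 900.3 rpm in rat. The 5 epithelial miRNAs reached 207 rpm in mouse against 339 rpm in rat. The 3 leukocyte miRNAs summed to 0.765 rpm in mouse, with miR-223 at 0, and 17.2 rpm in rat. The 4 muscle miRNAs summed to 832 rpm in mouse and 1855 rpm in rat. In mouse, miR-1 and miR-145 were at 0, so that sum came from miR-133a and miR-143 alone. Their separate values are not given here. In mouse, 8 of 8 sperm mRNAs had reads, 67.7 rpm in all, and 8 of 8 mRNAs of the caput epithelium had reads, 1944 rpm in all. Their part in the mitochondrial differences was not tested. With 1 library per species, the species, the strain, the animal and the library preparation cannot be told apart.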

How the data were processed

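Small RNA was sequenced from purified caput sperm on 1 mouse and 1 rat library. Per the file headers, the authors deposited whole, unnormalised read counts per distinct sequence with 1 matched entry and up to 2 mismatches. The submitters' processing notes name Bowtie 0.12.7, mm9 and rn5 without a role. Rows printed on the minus strand were turned. The mouse table's closing sum line was left out.

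Mouse labelled reads were mitochondrial if they matched the 37 GENCODE vM21 mitochondrial genes (15422 nt, 57 bases of no gene) or a tRNA with CCA added, with at most 2 mismatches. For 65 reads the best match was to a tRNA with the tail, of which 2 carried all of CCA. For rat, no rat genome was used here: rat reads were extended by 16-nt words while at least 2 reads and 70% carried the next base. The 61 kept contigs, up to 959 nt, had at least 60% of their bases identical to the mouse genes (85% under 40 nt) by blastn 2.17.0, and reads matched them with at most 2 mismatches. A further 58 rat reads were aligned one by one (85%). Joining replaced the planned alignment of single rat reads and was chosen after the data were seen. Where that planned alignment is given as an alternative, its identity limit was lower than 85%. rRNA reads shared an 18-nt word with reads of nuclear rRNA entries. Genes were assigned by midpoint.

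Each share was given its exact Clopper-Pearson interval (95%) and each ratio an exact conditional binomial one, with scipy 1.17.1. A count of 0 is taken to allow 3 counts. 1 read is 0.0850 rpm in mouse and 0.0683 rpm in rat. The placement was also run on simulated reads with even coverage and base substitutions alone. Its outcome is not given here, and such reads are unlike the uneven rat coverage, so it does not vouch for the rat positions.

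The text names the 5 most abundant members of each library, the leading sequences of the 6 genes with most reads, genes and records with at least 1% of reads, and windows chosen after their values were seen. Where a leading sequence lies in a transcript's untranslated region, at most 20 nt were printed. Members, lists and rules were chosen with earlier results of these data known.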

Additional observations from a re-analysis of the deposited data

Results flagged for a closer look

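Mitochondrial sequence also stood under classes that the mitochondrial label does not cover. In mouse, 1770 exact mitochondrial reads were listed under tRNA entries, against 986 in rat. In mouse 749 and in rat 301179 exact mitochondrial reads were listed under mRNA records, those of rat under 268 records. Both stand out because they lie outside the labelled reads and above the 3 reads that a count of 0 allows. Why the tables place them there was not tested.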

How the results depend on the processing

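Values in this paragraph are mouse over rat as log2 ratios, or mouse minus rat in percentage points. The log2 ratio of the record share, 0.86, was 0.73 with at least 10 reads per sequence, 0.46 with each sequence counted once, 1.46 without SNORD58 entries among listed reads, 0.65 within 18 to 45 nt and 1.06 without the most abundant member, and reversed to -0.53 without nuclear rRNA sequence. The mitochondrial share of labelled reads, -2.43, was -2.50 with 0 mismatches, -2.77 with at least 10 reads per sequence, -1.47 for distinct sequences, -2.29 within 18 to 45 nt, -1.99 with rat reads aligned one by one, -1.04 without nuclear rRNA sequence and -2.32 without the most abundant member. The mitochondrial share of listed reads, -1.57, was -1.64 with 0 mismatches, -2.04 with at least 10 reads, -1.01 for distinct sequences, -4.12 over every class, -0.97 without SNORD58 entries, -1.65 within 18 to 45 nt, -1.12 with rat reads one by one and -1.26 without the most abundant member. The rRNA share, 11.6 points higher in mouse, was 12.2 with 0 mismatches, 15.8 with at least 10 reads, 0.00503 for distinct sequences, 10.6 within 18 to 45 nt, 50.9 with rat reads one by one and 15.2 without the most abundant member, and reversed to -10.7 over every class. The antisense share, 0.112 points, was 0.0 with at least 10 reads and 3.44 over every class, and reversed to -0.0334 for distinct sequences and -33.4 with rat reads one by one. The share of 30 nt or more, 24.4 points, was 27.3 with at least 10 reads, 7.94 for distinct sequences, 22.3 within 18 to 45 nt, 37.9 with rat reads one by one and 12.8 without the most abundant member, and reversed to -9.98 over every class. The share of tRNA reads at the gene start, -96.3 points, was -96.7 with 0 mismatches, -4.12 with a distance of 0 nt, -44.1 for distinct sequences, -69.7 over every class and -97.5 with rat reads one by one. The 315 of 690 shared sequences higher in mouse became 194 of 393 with at least 10 reads per sequence and 100 of 196 with at least 100 reads in all. The 174 higher in rat became 29 of 393 and 54 of 196 in the same settings. Alignment of rat reads one by one was the planned placement, which joining replaced after the data were seen. The exclusion of nuclear rRNA and the lengths over every class were added after seeing the data. The cause of these shifts was not tested. No tRNA value could be had with at least 10 reads per sequence, since no mouse tRNA read was left. No paired analysis was possible because there was 1 library per species. Depth limits the mouse tRNA values, at 70 reads, and the rat values that rest on 1 to 7 reads.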
